A study of Mus musculus with 16 samples.

Results

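The genes described here are those of the mouse that code for Wnt ligands, their Frizzled receptors, the Lgr receptors for R-spondins, and the secreted inhibitors of the Sfrp and Dkk families. They were chosen by gene symbol: every protein-coding gene named Wnt, Fzd, Sfrp, Dkk or Lgr with a number and, where present, an a or b. The rule found 40 of the 54532 genes counted, which were 19 Wnt ligands, 10 Frizzled receptors, 3 Lgr receptors, 4 Sfrp genes and 4 Dkk genes. Poly(A) RNA from the aortas of 16 male C57BL/6J mice was sequenced, 1 library per mouse and 4 mice per group, to ask how dietary phosphate and protein act on the aorta when the kidneys fail. Surgery at 12 weeks of age was either a sham procedure or the removal of most kidney tissue (5/6 nephrectomy, 5/6 Nx), and the diets followed after 2 weeks of recovery. Food for Sham and for the group called 5/6 Nx-HPi-Lp held 2% phosphorus and 2.5% protein, that for 5/6 Nx-HPi-Hp 2% phosphorus and 18% protein, and that for 5/6 Nx-LPi-Lp 0.3% phosphorus and 2.5% protein; from here on the 5/6 before each name is left out. The sources give the time on the diet as 30 days and as 4 weeks. Sham thus shared both diet components with Nx-HPi-Lp, and sham-operated mice on the other diets were not analysed here. The tissue is labelled only as aorta, with no cell type sorted, so each library mixes the cells of the vessel with those of any tissue left on it.

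Wnt ligands are secreted lipid-modified proteins that bind Frizzled receptors on the cell surface. Together with the co-receptors Lrp5 and Lrp6 the complex stops the breakdown of beta-catenin, which then switches on target genes with TCF/LEF factors; other ligands act through receptors such as Ror2 on cell polarity and movement instead. Sfrp proteins carry a Frizzled-like domain that binds Wnt, Dkk1 and Dkk2 bind the Lrp co-receptors, and Lgr receptors bind R-spondins, which keep Frizzled on the surface. In arteries the pathway is studied for its part in vessel development, in the state of smooth muscle cells and in the mineralisation of the vessel wall.

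Library totals lay between 13659525 and 57276915 counts. Genes encoded in the mitochondrion took 5.19% ± 1.01 (SD, n = 4) of the counts in Sham, 23.5% ± 3.36 in Nx-HPi-Lp, 19.96% ± 8.78 in Nx-HPi-Hp and 17.4% ± 2.83 in Nx-LPi-Lp. All 8 smooth muscle markers were detected in the tissue labelled aorta, and their summed level was 8047 to 10122 FPKM in Sham, 873 to 2003 in Nx-HPi-Lp, 2239 to 8919 in Nx-HPi-Hp and 2777 to 6672 in Nx-LPi-Lp. The highest Nx-HPi-Hp value belonged to replicate 4, which sat inside the Sham range. The summed level of 10 sympathetic neuron genes, all of them detected, was 3.02 to 4.66 FPKM in Sham but 870, 16.6, 131 and 649 in the Nx-HPi-Lp libraries, so replicates 1 and 4 stood apart there. Heart muscle genes summed to 2353 FPKM in Nx-LPi-Lp replicate 2 and to at most 24.3 in the rest of that group. They summed to 235, 114, 21.2 and 11.1 FPKM in the Nx-HPi-Hp libraries, 9.02 to 32.0 in Nx-HPi-Lp and 4.30 to 17.2 in Sham. In such bulk tissue, fewer cells of a type and less RNA per cell cannot be told apart.

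Levels are given as FPKM (reads corrected for gene length and for library size, on the authors' scale), which can be compared between genes, and values with ± after FPKM are means and SD over the 4 mice of a group. Over the 16 libraries Dkk3 was the most abundant member with a mean of 95.8 FPKM. Next came Sfrp2 at 45.2, Lgr6 at 33.6, Fzd2 at 28.8 and Fzd1 at 21.0. After them came Sfrp4 at 20.5, Fzd7 at 18.1, Sfrp1 at 16.2 and Fzd4 at 14.6. No ligand came near those levels: the highest, Wnt9a, had a mean of 4.55 FPKM. Wnt3a had 0 counts in all 16 libraries, which allows up to 3 counts in each, and the highest count of Wnt3 in any library was 1, of Wnt8a 2 and of Dkk4 4. Together with Fzd10, Wnt1, Wnt7a, Wnt8b and Wnt10a, none of which passed 95 counts in a library, these made 9 members that were too low to be tested in any comparison, and Wnt7b was tested in the last comparison alone.

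**Figure D1:**
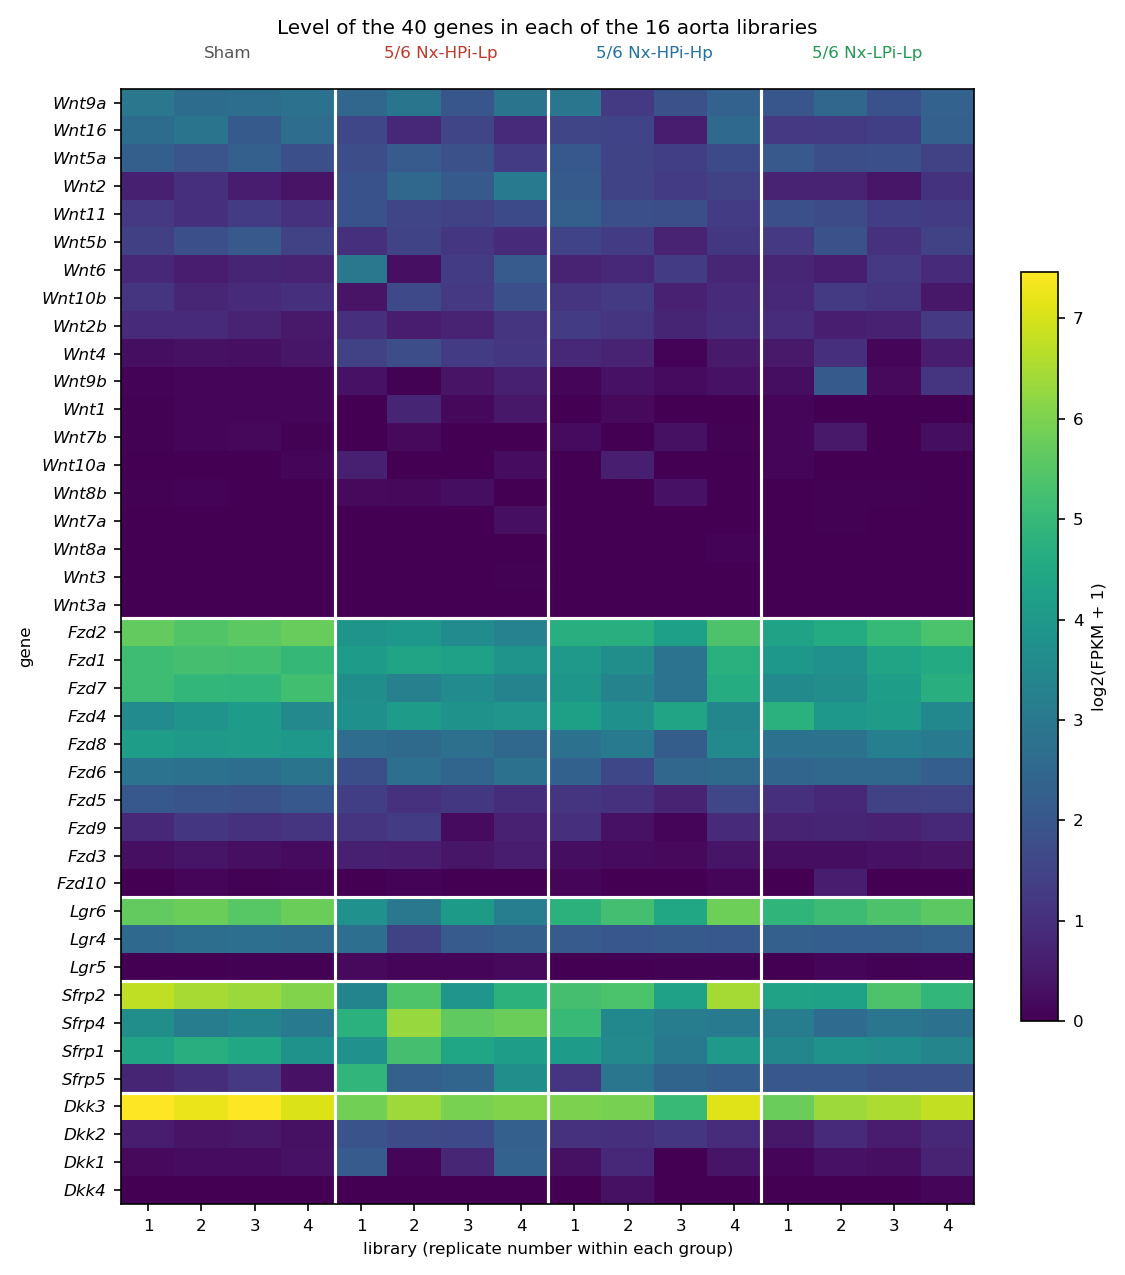
Heat map of log2(FPKM + 1) for the 40 genes (rows, by family) in the 16 libraries (columns, by group). Receptors and Sfrp or Dkk genes such as Dkk3, Sfrp2, Lgr6 and Fzd2 are the brightest rows (yellow and green). Most Wnt ligands are dark in every library.

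Differences were tested on counts with edgeR's quasi-likelihood test, and a call needed an adjusted p no higher than 0.05 together with a change of 2-fold or more. Values written with ± SE or with an adjusted p are log2 fold changes from this test, positive where the group named first was higher. Between Nx-HPi-Lp and Sham, which share a diet and differ in kidney surgery, 17 of the 29 members tested were called, 8 higher and 9 lower, while 22.2% of all 16513 genes tested were (15.0% higher, 7.18% lower). Against Nx-HPi-Hp, which differs in dietary protein, 5 of 30 were called, 3 higher and 2 lower, against 8.12% of all genes (5.01% higher, 3.11% lower). Against Nx-LPi-Lp, which differs in dietary phosphorus, 7 of 30 were called, 5 higher and 2 lower, against 11.9% of all genes (7.90% higher, 3.98% lower). The median log2 fold change of the members was -0.23, 0.20 and 0.03 in the 3 comparisons, and that of all genes tested was -0.0027, 0.01 and -0.02. Without any overlap of the groups lay 8 higher and 9 lower members against Sham, a placement shared by 43.0% of all genes (18.8% higher, 24.2% lower). So placed were 4 higher and 2 lower members against Nx-HPi-Hp (20.4% of all genes, 10.1% higher, 10.3% lower) and 6 and 2 against Nx-LPi-Lp (24.7%, 12.6% higher, 12.1% lower). Of the 28 members that passed the count filter in every comparison of 2 groups, 16 were called against Sham, 7 higher and 9 lower. The 3 comparisons share the Nx-HPi-Lp libraries, so a library of that group that stands apart enters each of them. With Nx-HPi-Lp replicates 1 and 4 left out, an alternative added after seeing the data, 15 members were called against Sham, 0 against Nx-HPi-Hp and 5 against Nx-LPi-Lp. Without replicate 4 alone the counts were 15, 0 and 5. Calls against Nx-HPi-Hp numbered 2 when replicate 3 of Nx-HPi-Lp was removed, and 3 when replicate 2 or 4 of Nx-HPi-Hp was. At an unadjusted p under 0.05, 8 members passed against Nx-HPi-Hp without both libraries and 7 without replicate 4, by edgeR in each case, and DESeq2 called 10 with all libraries.

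**Figure D2:**
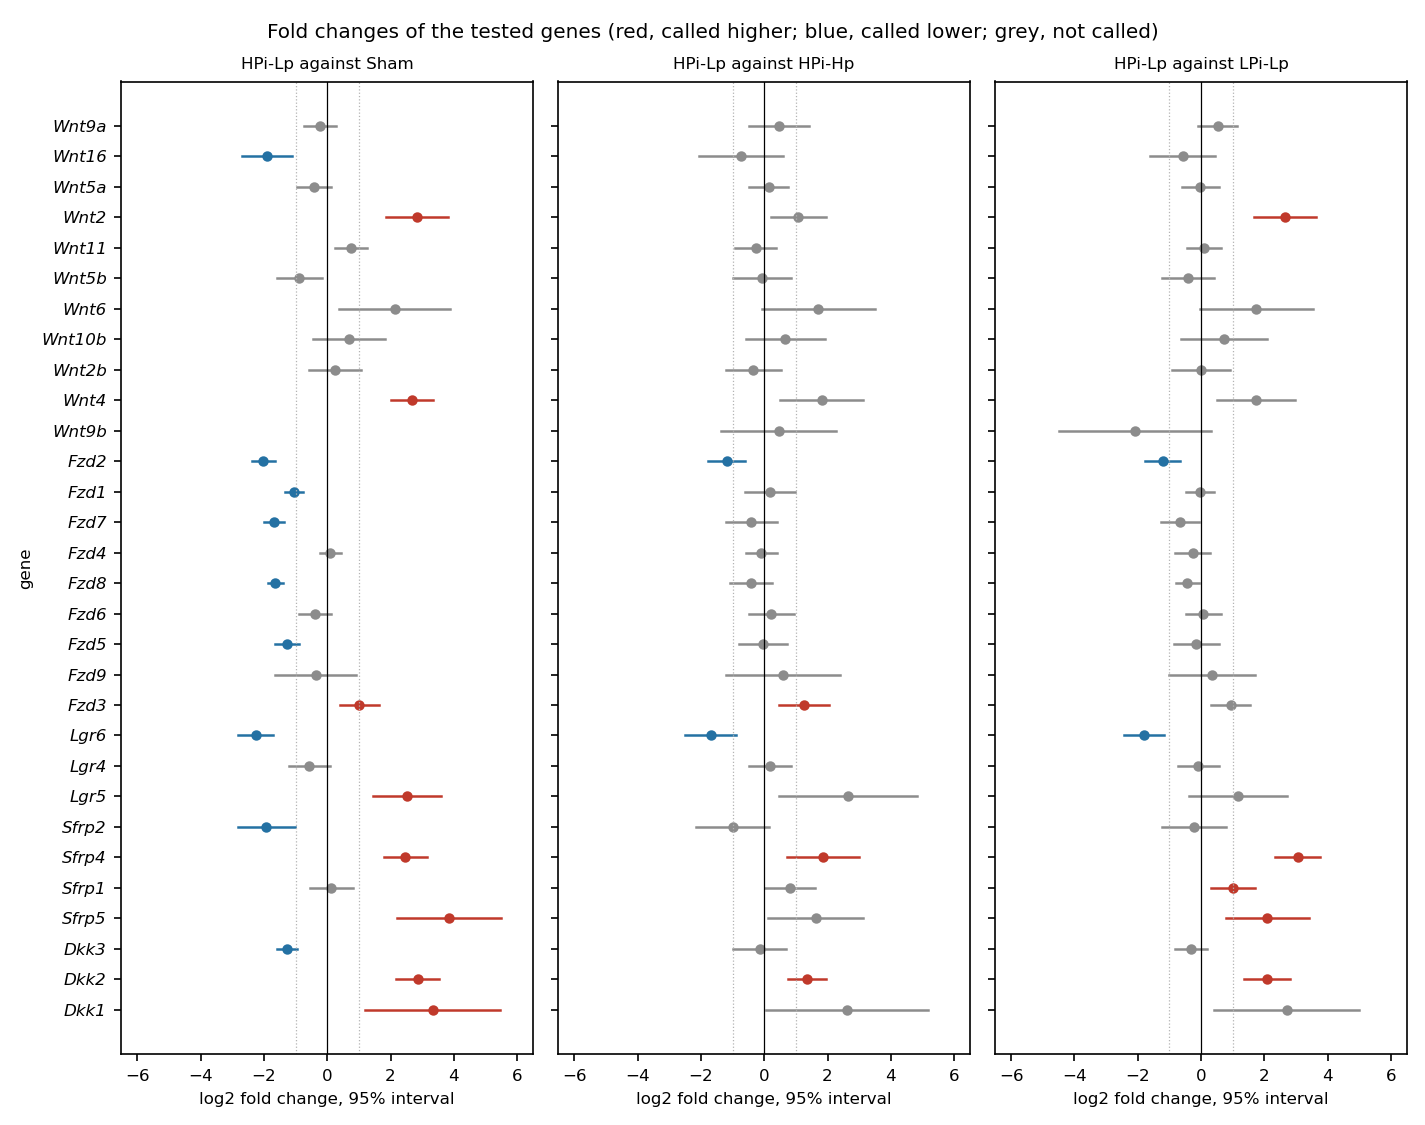
Log2 fold change of each tested member between Nx-HPi-Lp and Sham, Nx-HPi-Hp or Nx-LPi-Lp (panels), with its 95% interval. Red marks members called higher, blue those called lower and grey those not called; Dkk2 and Sfrp4 are red and Fzd2 and Lgr6 blue in all 3 panels.

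Promoters are shown for the 3 members that were called in at least 2 of the comparisons with Nx-HPi-Lp and whose RefSeq start is the start in the deposited annotation. Each run is the 250 bases before the start, from RefSeq for GRCm38.p6, written 5′ to 3′ on the strand of the gene, and capitals mark the motifs found. Dkk2 lies at chr3:132085042-132085291 on the plus strand, Lgr6 at chr1:135105277-135105526 on the minus strand and Sfrp5 at chr19:42202253-42202502 on the minus strand.
Dkk2: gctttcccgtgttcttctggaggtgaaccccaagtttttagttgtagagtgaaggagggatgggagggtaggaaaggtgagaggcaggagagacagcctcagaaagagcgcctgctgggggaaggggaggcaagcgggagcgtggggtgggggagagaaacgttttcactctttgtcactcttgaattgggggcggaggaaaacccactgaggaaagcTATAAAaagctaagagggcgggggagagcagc
Lgr6: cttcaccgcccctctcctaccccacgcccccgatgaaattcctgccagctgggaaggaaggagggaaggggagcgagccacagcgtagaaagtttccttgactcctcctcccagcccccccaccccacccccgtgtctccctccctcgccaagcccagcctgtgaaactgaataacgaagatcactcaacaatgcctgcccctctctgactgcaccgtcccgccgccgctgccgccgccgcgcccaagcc
Sfrp5: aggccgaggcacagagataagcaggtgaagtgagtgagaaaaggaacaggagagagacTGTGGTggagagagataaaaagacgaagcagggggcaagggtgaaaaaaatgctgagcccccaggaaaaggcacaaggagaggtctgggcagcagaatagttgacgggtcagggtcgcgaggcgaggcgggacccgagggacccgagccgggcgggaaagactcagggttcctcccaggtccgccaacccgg
Both strands were searched for the TCF/LEF core CTTTGA, the AP-1 motif TGANTCA, the Runx motif TGTGGT, the CArG box of smooth muscle genes and the TATA motif TATAAA. Dkk2 held TATAAA at 32 bases before the start, Sfrp5 held TGTGGT at 192 bases before it, and the Lgr6 run held none of the 5. Of all 32851 promoters of this length, 12.4% held TATAAA, 14.05% TGTGGT, 13.8% CTTTGA, 6.75% TGANTCA and 1.47% a CArG box. Among the 27 members with a promoter entry, CTTTGA was in 3 (Dkk1, Fzd1 and Wnt11), TGANTCA in 1 (Wnt5b), TGTGGT in 2 (Dkk1 and Sfrp5), a CArG box in 1 (Lgr4) and TATAAA in 4 (Dkk1, Dkk2, Fzd1 and Wnt11). None of these motifs overlapped another. These matches describe letters in a window and not binding.

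Among the ligands, Wnt2 and Wnt4 rose and Wnt16 fell against Sham, out of 10 tested. Wnt2, a ligand that signals through beta-catenin and is known from lung and heart development, was listed at 0.587, 1.04, 0.515 and 0.305 FPKM in the Sham libraries, 2.67, 4.70, 3.32 and 7.32 in Nx-HPi-Lp, 3.34, 1.92, 1.49 and 1.74 in Nx-HPi-Hp and 0.666, 0.678, 0.359 and 1.15 in Nx-LPi-Lp. Every Nx-HPi-Lp library was above every Sham and every Nx-LPi-Lp library, but the lowest of them lay under the highest Nx-HPi-Hp library. In edgeR the log2 fold change (± SE) was 2.85 ± 0.44, adjusted p = 0.00074 against Sham, 2.64 ± 0.44, adjusted p = 0.00488 against Nx-LPi-Lp and 1.08 ± 0.39, adjusted p = 0.0926 against Nx-HPi-Hp, where it was not called. Wnt4, a ligand needed to form the kidney's epithelium, was listed at 0.210, 0.259, 0.226 and 0.356 FPKM in the Sham libraries, 1.73, 2.38, 1.48 and 1.28 in Nx-HPi-Lp, 0.764, 0.648, 0.0558 and 0.468 in Nx-HPi-Hp and 0.411, 1.05, 0.105 and 0.505 in Nx-LPi-Lp. Its Nx-HPi-Lp values were above all others, with a log2 fold change of 2.67 ± 0.30, adjusted p = 0.000124 against Sham. Against the other groups the difference missed the threshold, with log2 fold changes of 1.81 ± 0.59, adjusted p = 0.0685 against Nx-HPi-Hp and 1.73 ± 0.55, adjusted p = 0.0524 against Nx-LPi-Lp. Both of these changed with single libraries: without Nx-HPi-Hp replicate 3 Wnt4 was called at 1.43 (adjusted p = 0.0436), and without Nx-LPi-Lp replicate 2 at 2.28 (adjusted p = 0.0233).

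Wnt16, a ligand known from cortical bone, went the other way, with 5.28, 6.38, 3.31 and 5.42 FPKM in the Sham libraries, 2.02, 0.764, 1.93 and 0.862 in Nx-HPi-Lp, 1.97, 1.83, 0.501 and 4.82 in Nx-HPi-Hp and 1.34, 1.42, 1.59 and 3.93 in Nx-LPi-Lp. The Nx-HPi-Lp libraries lay under every Sham library, while replicate 4 of the Nx-HPi-Hp and of the Nx-LPi-Lp mice stayed among the Sham values. For Wnt16 the log2 fold change was -1.90 ± 0.35, adjusted p = 0.00203 against Sham, -0.73 ± 0.60, adjusted p = 0.434 against Nx-HPi-Hp and -0.58 ± 0.46, adjusted p = 0.398 against Nx-LPi-Lp, so only the first was called. Wnt9a, a ligand known from joint formation and the most abundant Wnt in these aortas, was listed at 6.76, 5.21, 5.52 and 5.91 FPKM in the Sham libraries, 4.55, 6.53, 3.01 and 6.40 in Nx-HPi-Lp, 6.61, 1.43, 2.58 and 4.13 in Nx-HPi-Hp and 2.96, 4.48, 2.68 and 4.10 in Nx-LPi-Lp. All Nx-LPi-Lp libraries lay under the Sham range, and the Nx-HPi-Lp libraries overlapped every other group. Wnt9a was not called in any comparison, and the 95% interval of its log2 fold change against Sham was -0.74 to 0.29. Wnt6 had values of 6.99, 0.237, 1.51 and 3.43 FPKM in the Nx-HPi-Lp libraries and 0.477 to 0.805 in Sham, so 1 Nx-HPi-Lp library lay under all Sham libraries and the rest above them. Its log2 fold change of 2.14 ± 0.78, adjusted p = 0.0504 was not called, but it was without replicate 2 (2.54, adjusted p = 0.0025), and without replicates 1 and 4 it was 0.37 (adjusted p = 0.679). The ligands that act mainly on cell polarity were not called in these 3 comparisons: Wnt5a was 3.25 ± 0.657 FPKM (mean ± SD, n = 4) in Sham and 2.47 ± 0.794 in Nx-HPi-Lp, Wnt5b 2.29 ± 0.750 and 1.26 ± 0.438, and Wnt11 1.24 ± 0.240 and 2.14 ± 0.413. Of these, Wnt5b and Wnt11 passed the adjusted p against Sham but not the 2-fold limit. Wnt2b and Wnt10b were not called either, and their values in the groups overlapped.

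Most of the calls among Frizzled receptors were lower. Of 9 tested against Sham, 5 were called lower (Fzd1, Fzd2, Fzd5, Fzd7 and Fzd8), 1 was called higher (Fzd3) and 3 were not called (Fzd4, Fzd6 and Fzd9), beside 7.18% of all genes called lower and 15.0% higher. The median log2 fold change of the family was -1.06. Fzd2, on chromosome 11 (chr11:102604396-102608058, plus strand, mm10), was the most abundant receptor of the family, with 49.6, 42.2, 47.1 and 52.0 FPKM in the Sham libraries, 13.5, 14.8, 11.0 and 8.84 in Nx-HPi-Lp, 25.4, 25.1, 17.7 and 40.7 in Nx-HPi-Hp and 18.8, 23.1, 30.9 and 39.5 in Nx-LPi-Lp. The Nx-HPi-Lp libraries were lower than every library of every other group. Its log2 fold change was -2.01 ± 0.16, adjusted p = 2.81e-05 against Sham, -1.18 ± 0.27, adjusted p = 0.021 against Nx-HPi-Hp and -1.22 ± 0.25, adjusted p = 0.0117 against Nx-LPi-Lp, and all 3 were called. The call against Nx-HPi-Hp was lost without Nx-HPi-Lp replicate 3 or 4 or without Nx-HPi-Hp replicate 4 (-0.91 without the last), and the call against Nx-LPi-Lp without Nx-LPi-Lp replicate 4 (-0.99).

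Fzd7 and Fzd1, which are close relatives of Fzd2, fell against Sham and were not called against the other nephrectomised groups. Fzd7 was listed at 34.6, 30.01, 28.9 and 36.0 FPKM in the Sham libraries, 12.2, 8.52, 11.1 and 9.22 in Nx-HPi-Lp, 14.5, 9.16, 6.23 and 23.9 in Nx-HPi-Hp and 10.7, 11.8, 17.2 and 25.4 in Nx-LPi-Lp. Values in all 3 nephrectomised groups lay under the Sham range, with the highest of them in Nx-HPi-Hp replicate 4 and Nx-LPi-Lp replicate 4. For Fzd7 the log2 fold change was -1.69 ± 0.14, adjusted p = 3.73e-05 against Sham and -0.40 ± 0.36, adjusted p = 0.479 against Nx-HPi-Hp. Fzd1 was listed at 34.7, 37.5, 35.9 and 30.2 FPKM in the Sham libraries, 16.5, 19.5, 18.4 and 13.5 in Nx-HPi-Lp, 15.4, 12.03, 6.22 and 25.8 in Nx-HPi-Hp and 14.9, 12.7, 19.4 and 22.5 in Nx-LPi-Lp. Again all nephrectomised libraries lay under the Sham range. Its log2 fold change against Sham was -1.06 ± 0.13, adjusted p = 0.000198, near the 2-fold limit, and with Nx-HPi-Lp replicate 4 left out it was -0.95 and not called. Fzd8 and Fzd5, another related pair, fell as well. Fzd8 was listed at 16.7, 15.6, 15.96 and 14.8 FPKM in the Sham libraries, 5.41, 4.99, 5.70 and 4.63 in Nx-HPi-Lp, 5.84, 7.25, 3.61 and 11.0 in Nx-HPi-Hp and 5.83, 6.06, 8.43 and 7.69 in Nx-LPi-Lp, with every nephrectomised library under every Sham library. For Fzd8 the log2 fold change was -1.63 ± 0.10, adjusted p = 1.37e-05 against Sham, the smallest adjusted p of all members. Fzd5 was listed at 3.15, 2.80, 2.64 and 3.14 FPKM in the Sham libraries, 1.60, 1.10, 1.29 and 0.974 in Nx-HPi-Lp, 1.24, 1.09, 0.665 and 2.00 in Nx-HPi-Hp and 0.997, 0.811, 1.79 and 1.89 in Nx-LPi-Lp. Its Nx-HPi-Lp libraries were under the Sham range, with a log2 fold change of -1.27 ± 0.17, adjusted p = 0.000355. Exons of Fzd5 overlap Gm38058 on the opposite strand, and the same holds for Fzd6 with Gm26704, Sfrp2 with Gm26771, Wnt5a with Gm2670 and Wnt11 with Gm8398. The strand used in counting is not stated, so reads of these pairs cannot be separated.

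Fzd3, a receptor known from axon guidance, was the exception in direction and had a low level, with 0.235, 0.336, 0.235 and 0.161 FPKM in the Sham libraries, 0.581, 0.559, 0.375 and 0.486 in Nx-HPi-Lp, 0.200, 0.152, 0.146 and 0.327 in Nx-HPi-Hp and 0.208, 0.214, 0.299 and 0.320 in Nx-LPi-Lp. All Nx-HPi-Lp values were above the Sham range. Its log2 fold change was 1.01 ± 0.27, adjusted p = 0.0142 against Sham and 1.26 ± 0.36, adjusted p = 0.0452 against Nx-HPi-Hp, both called, and 0.94 ± 0.28, adjusted p = 0.0408 against Nx-LPi-Lp, under the 2-fold limit, which it passed without Nx-HPi-Lp replicate 3 (1.05) or Nx-LPi-Lp replicate 4 (1.08). The call against Sham was lost without Sham replicate 1, 3 or 4 or Nx-HPi-Lp replicate 1 or 2 (range of all 8 fits 0.84 to 1.19), and the call against Nx-HPi-Hp without any library but Nx-HPi-Hp replicate 4 (1.10 to 1.58). Fzd4, which also binds norrin and is known from retinal vessels, was 12.8 ± 2.58 FPKM in Sham and 13.97 ± 1.67 in Nx-HPi-Lp, Fzd6 was 5.96 ± 0.403 and 4.61 ± 1.54, and Fzd9 was 1.10 ± 0.188 and 0.871 ± 0.597; all of these overlapped.

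**Figure D3:**
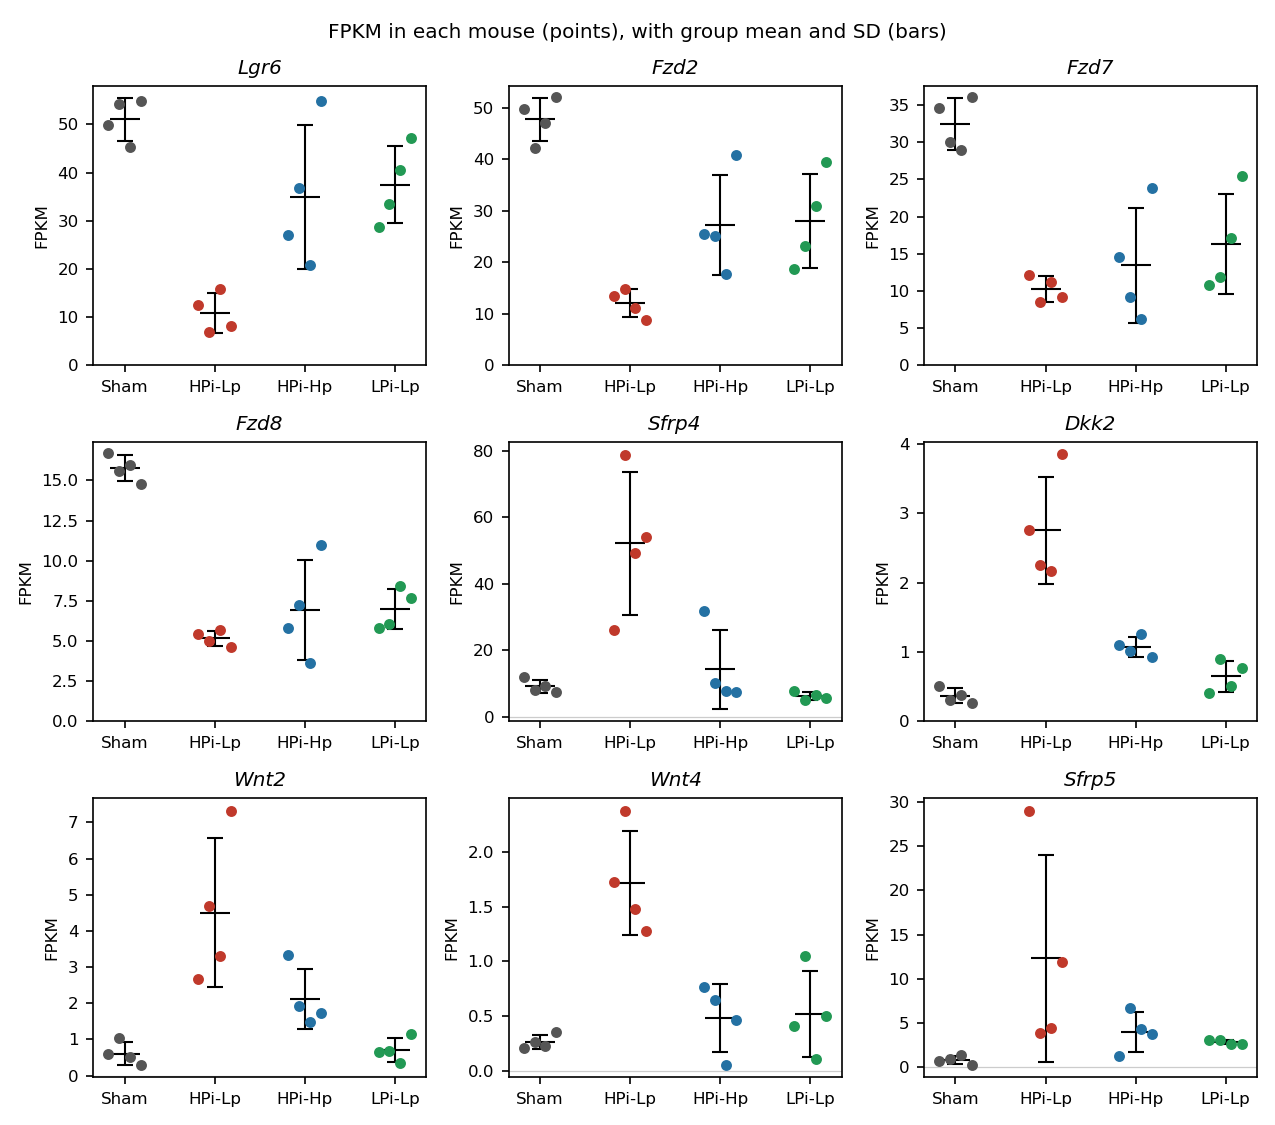
FPKM in each mouse (points) with the mean and SD (bars) for 9 members in the 4 groups. Lgr6, Fzd2, Fzd7 and Fzd8 are lowest or near lowest in Nx-HPi-Lp, whereas Sfrp4, Dkk2, Wnt2, Wnt4 and Sfrp5 have their highest values there.

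Lgr6 had the largest fall of the receptors. This receptor, on chromosome 1 (chr1:134983301-135105276, minus strand, mm10) and otherwise known as a marker of stem cells in the hair follicle, was listed at 49.95, 54.3, 45.2 and 54.8 FPKM in the Sham libraries, 12.6, 6.88, 15.9 and 8.07 in Nx-HPi-Lp, 27.0, 36.8, 20.8 and 54.9 in Nx-HPi-Hp and 28.8, 33.6, 40.5 and 47.2 in Nx-LPi-Lp. The Nx-HPi-Lp libraries were under all others, and Nx-HPi-Hp replicate 4 reached the top of the Sham range. Lgr6 had a log2 fold change of -2.26 ± 0.25, adjusted p = 0.000124 against Sham, -1.69 ± 0.36, adjusted p = 0.0169 against Nx-HPi-Hp and -1.79 ± 0.28, adjusted p = 0.00407 against Nx-LPi-Lp. The call against Nx-HPi-Hp did not hold with Nx-HPi-Lp replicate 4 left out (-1.57, adjusted p = 0.0599). Lgr5, the marker of intestinal stem cells, was close to the limit of detection, with 3, 5, 5 and 6 counts in Sham, 23, 53, 37 and 21 in Nx-HPi-Lp, 0, 0, 5 and 6 in Nx-HPi-Hp and 1, 16, 5 and 12 in Nx-LPi-Lp. In CPM the Nx-LPi-Lp libraries overlapped those of Nx-HPi-Lp, while all Sham and Nx-HPi-Hp libraries lay under the Nx-HPi-Lp range. Lgr5 passed the count filter only in the 3 comparisons that hold Nx-HPi-Lp, the group where it is high, so its values there (2.53 ± 0.48, adjusted p = 0.00241 against Sham, 2.65 ± 0.98, adjusted p = 0.101 against Nx-HPi-Hp and 1.18 ± 0.69, adjusted p = 0.254 against Nx-LPi-Lp) are given as a description, although the first is among the calls counted. Lgr4 was not called, at 5.31 ± 0.352 FPKM in Sham and 3.67 ± 1.61 in Nx-HPi-Lp.

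The Sfrp genes moved in opposite directions, with Sfrp4 and Sfrp5 called higher against Sham, Sfrp2 called lower and Sfrp1 not called. Sfrp4, on chromosome 13 (chr13:19623104-19632994, plus strand, mm10) and known from bone turnover, was listed at 11.97, 7.97, 9.40 and 7.43 FPKM in the Sham libraries, 26.2, 78.9, 49.4 and 54.2 in Nx-HPi-Lp, 32.0, 10.1, 7.72 and 7.44 in Nx-HPi-Hp and 7.85, 5.11, 6.57 and 5.84 in Nx-LPi-Lp. Every Nx-HPi-Lp library was above every Sham and Nx-LPi-Lp library, but replicate 1 lay under Nx-HPi-Hp replicate 1. The log2 fold change was 2.47 ± 0.30, adjusted p = 0.000207 against Sham, 3.04 ± 0.32, adjusted p = 0.00101 against Nx-LPi-Lp and 1.86 ± 0.51, adjusted p = 0.0398 against Nx-HPi-Hp. The last call held only without replicate 1 of either group and was lost without any of the other 6 libraries, with values from 1.60 to 2.63 over the 8 fits. Sfrp4 was highest in replicate 2, which also had the highest summed level of 7 fibroblast genes, all detected (3524 FPKM, against 792 to 1532 in the rest of that group and 456 to 682 in Sham). The part of fibroblast content in the rise of Sfrp4 was not tested.

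Sfrp5, a factor secreted by fat tissue, was listed at 0.696, 0.968, 1.38 and 0.282 FPKM in the Sham libraries, 29.0, 3.88, 4.38 and 11.9 in Nx-HPi-Lp, 1.24, 6.70, 4.31 and 3.74 in Nx-HPi-Hp and 3.10, 3.05, 2.64 and 2.62 in Nx-LPi-Lp. All Nx-HPi-Lp values were above Sham and above Nx-LPi-Lp, and they spanned a wide range with the highest in replicates 1 and 4. The log2 fold change was 3.85 ± 0.73, adjusted p = 0.00235 against Sham, 2.08 ± 0.59, adjusted p = 0.0346 against Nx-LPi-Lp and 1.62 ± 0.68, adjusted p = 0.136 against Nx-HPi-Hp, where it was not called. Without Nx-HPi-Lp replicates 1 and 4 the value against Nx-LPi-Lp was 0.54 (adjusted p = 0.176). That call held only without Nx-HPi-Lp replicate 2 or 3 and was lost without any other library, with values from 1.25 (without Nx-HPi-Lp replicate 1) to 2.38. The 7 adipocyte genes, all detected, summed to 140 to 373 FPKM in Sham, 1193 to 1980 in Nx-HPi-Lp, 346 to 2397 in Nx-HPi-Hp and 792 to 2262 in Nx-LPi-Lp; their part in the level of Sfrp5 was not tested. Sfrp2, which also takes part in collagen processing, was listed at 108, 88.5, 79.8 and 65.4 FPKM in the Sham libraries, 9.40, 41.5, 14.01 and 26.9 in Nx-HPi-Lp, 37.2, 39.9, 18.4 and 86.5 in Nx-HPi-Hp and 18.8, 18.3, 41.1 and 29.98 in Nx-LPi-Lp. The Nx-HPi-Lp libraries were under the Sham range and overlapped both other groups, with a log2 fold change of -1.93 ± 0.40, adjusted p = 0.00384 against Sham. Sfrp1, a general inhibitor of Wnt signalling, was listed at 19.7, 24.7, 20.7 and 13.3 FPKM in the Sham libraries, 12.7, 37.6, 20.5 and 17.1 in Nx-HPi-Lp, 16.6, 10.5, 7.15 and 15.1 in Nx-HPi-Hp and 9.74, 12.9, 11.8 and 9.48 in Nx-LPi-Lp. Replicate 2 of Nx-HPi-Lp was the highest of all libraries, replicate 1 lay just under the Sham range, and replicates 3 and 4 lay within it. Sfrp1 was called only against Nx-LPi-Lp (1.01 ± 0.31, adjusted p = 0.0445), where the groups overlapped. That call held only without Nx-HPi-Lp replicate 1, with values from 0.61 (adjusted p = 0.0655, without Nx-HPi-Lp replicate 2) to 1.21.

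Of the Dkk genes, Dkk1 and Dkk2 rose against Sham and Dkk3 fell. Dkk2, a ligand of Lrp6 on chromosome 3 (chr3:132085292-132180304, plus strand, mm10), was listed at 0.516, 0.305, 0.383 and 0.269 FPKM in the Sham libraries, 2.76, 2.26, 2.16 and 3.85 in Nx-HPi-Lp, 1.10, 1.01, 1.26 and 0.931 in Nx-HPi-Hp and 0.405, 0.895, 0.517 and 0.775 in Nx-LPi-Lp. The Nx-HPi-Lp libraries were above all others, and the Nx-HPi-Hp libraries were above both Sham and Nx-LPi-Lp. Dkk2 had a log2 fold change of 2.86 ± 0.30, adjusted p = 0.000101 against Sham, 2.08 ± 0.33, adjusted p = 0.00407 against Nx-LPi-Lp and 1.36 ± 0.27, adjusted p = 0.0144 against Nx-HPi-Hp. The last call did not hold with Nx-HPi-Lp replicate 4 left out (1.15, adjusted p = 0.0533). Dkk1, the classical inhibitor of Lrp5 and Lrp6, was listed at 0.151, 0.189, 0.177 and 0.284 FPKM in the Sham libraries, 3.46, 0.0959, 0.738 and 4.08 in Nx-HPi-Lp, 0.264, 0.769, 0 and 0.328 in Nx-HPi-Hp and 0.0687, 0.289, 0.243 and 0.640 in Nx-LPi-Lp. Replicates 1 and 4 were far above the Sham mice and replicate 2 was under all of them. It was called against Sham (3.33 ± 0.95, adjusted p = 0.0178), but without replicates 1 and 4 the value was 1.03 (adjusted p = 0.315), and the call was also lost without Sham replicate 1, 2 or 3 or without replicate 4 alone (2.77, adjusted p = 0.051). Dkk3, the divergent member of the family, was listed at 176, 149.98, 175 and 134 FPKM in the Sham libraries, 58.1, 82.6, 61.7 and 65.6 in Nx-HPi-Lp, 63.0, 59.7, 32.4 and 138 in Nx-HPi-Hp and 53.4, 82.5, 92.8 and 109 in Nx-LPi-Lp. All Nx-HPi-Lp libraries were under the Sham range and overlapped both other groups, with log2 fold changes of -1.28 ± 0.14, adjusted p = 0.000131 against Sham, -0.14 ± 0.38, adjusted p = 0.83 against Nx-HPi-Hp and -0.33 ± 0.22, adjusted p = 0.318 against Nx-LPi-Lp.

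Marker genes of several cell types moved with the groups, and some members were high or low in the same libraries. All 8 smooth muscle genes were called lower in Nx-HPi-Lp than in Sham. Within each group other than Nx-HPi-Lp the order of the libraries by Lgr6 CPM (counts scaled by library size with TMM factors) was their order by summed smooth muscle level. Replicate 4 of Nx-HPi-Hp, with smooth muscle at the Sham level, had 388 CPM of Lgr6, against 137 to 242 in the rest of its group and 325 to 389 in Sham. In Nx-HPi-Lp, Lgr6 was 46.0 to 109 CPM, and the 2 libraries with less smooth muscle RNA had less of it than the other 2. Dkk1, Sfrp5 and Wnt6 were highest in the 2 libraries with the most sympathetic neuron RNA, at 8.20 and 9.87 CPM of Dkk1 in Nx-HPi-Lp replicates 1 and 4, against 0.23 and 1.79 in replicates 2 and 3. Of the 10 neuron genes 7 were tested against Sham, and all 7 were called higher. All 6 macrophage genes were called higher too, summing to 61.9 to 206 FPKM in Nx-HPi-Lp and 18.8 to 24.9 in Sham, as were 4 of 7 fibroblast, 6 of 7 adipocyte and 7 of 7 Schwann cell genes, while 3 of 7 endothelial genes were. Osteoblast genes summed to 1.17 to 3.65 FPKM in Nx-HPi-Lp and 2.00 to 2.81 in Sham. Chondrocyte genes summed to 26.8 to 78.2 FPKM in Nx-HPi-Lp and 20.1 to 25.5 in Sham, and 3 of 5 tested were called higher. The 6 kidney tubule genes summed to 0.134 to 0.303 FPKM in Nx-HPi-Lp and 0.272 to 0.741 in Sham. Umod and Slc34a1 were at 0 in every library of every group, Sham included, and 1 of 2 tubule genes tested was called lower. The 7 thymus and T cell genes summed to 0.394 to 2.32 FPKM in Nx-HPi-Lp and 3.75 to 24.3 in Sham, and 5 of 7 were called lower. Sums of lung epithelium (13.7 to 130 FPKM, 1.16 to 2.68 in Sham) and pancreas genes (1.90 to 107 FPKM, 0.09 to 0.38 in Sham) were higher as well. The part of these cell types in the differences of the Wnt genes was not tested.

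**Figure D4:**
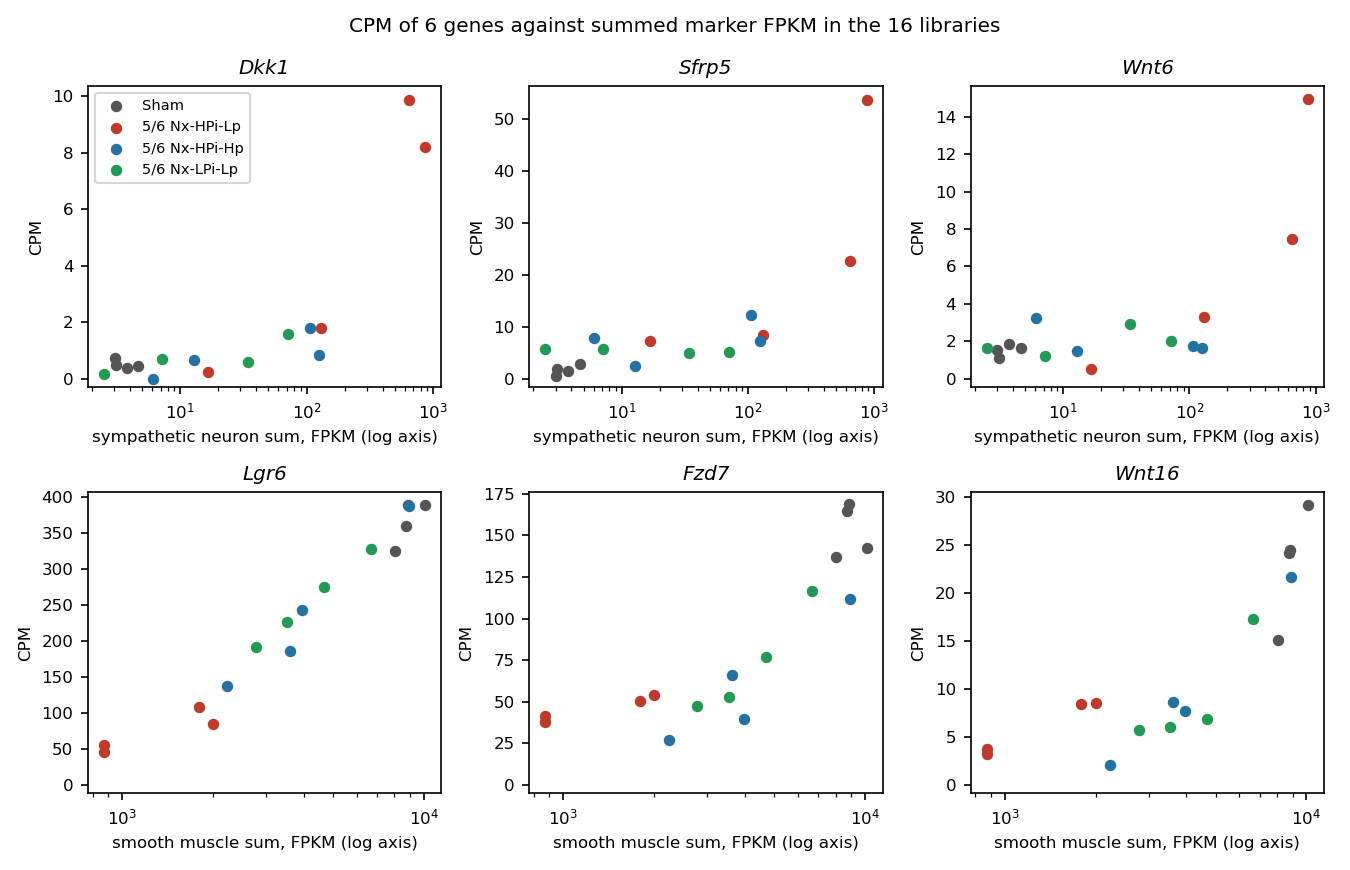
CPM of 6 members in each of the 16 libraries (y axis) against the summed FPKM of sympathetic neuron genes (top, log axis) or of smooth muscle genes (bottom, log axis), coloured by group. Dkk1, Sfrp5 and Wnt6 are highest in the 2 libraries at the right of the neuron axis, and the libraries at the left of the smooth muscle axis have low values of Lgr6, Fzd7 and Wnt16.

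The other nephrectomised groups were also compared with Sham, and these comparisons share the Sham libraries with the one above. Nx-HPi-Hp differs from Sham in surgery and in dietary protein, and Nx-LPi-Lp in surgery and in dietary phosphorus. In both comparisons surgery and diet cannot be told apart. In Nx-HPi-Hp 9 of 28 members tested were called, 4 higher and 5 lower, against 12.2% of all genes (9.41% higher, 2.75% lower). Values did not overlap for 2 higher and 7 lower members (33.8% of all genes, 13.9% higher, 19.9% lower). Those higher were Wnt2 (1.80 ± 0.41, adjusted p = 0.0135), Dkk2 (1.53 ± 0.29, adjusted p = 0.00971), Sfrp5 (2.24 ± 0.54, adjusted p = 0.0159) and the polarity ligand Wnt11 (1.05 ± 0.28, adjusted p = 0.0222). Those lower were Fzd1, Fzd5, Fzd7, Fzd8 and Dkk3, with log2 fold changes of -1.22, -1.22, -1.27, -1.19 and -1.12. Without Sham replicate 1 or 2 the count was 5, and without Nx-HPi-Hp replicate 4 it was 12. The call of Dkk3 held only without Nx-HPi-Hp replicate 4 and that of Fzd1 only without it or Sham replicate 4 (-1.63 to -0.88 and -1.63 to -0.97 over the 8 fits). Wnt11 lost its call without Sham replicate 1, 2 or 4 or Nx-HPi-Hp replicate 1 (0.77 without the last), Fzd7 without Sham replicate 1 or 2 or Nx-HPi-Hp replicate 2 (-1.12 without the last), and Fzd8 without Nx-HPi-Hp replicate 3 (-0.98). Lgr6 was not called in this comparison (-0.56 ± 0.27, adjusted p = 0.131), nor was Sfrp4 (0.65 ± 0.45, adjusted p = 0.277), which without Nx-HPi-Hp replicate 1 was -0.15. In Nx-LPi-Lp 6 of 29 members tested were called, 2 higher and 4 lower, against 10.9% of all genes (8.79% higher, 2.08% lower), and 10 were called with total-count scaling, 2 higher and 8 lower. Values did not overlap for 2 higher and 13 lower members (35.6% of all genes, 13.6% higher, 22.1% lower). 1 of those counted as higher, Wnt9b, a ligand of kidney tubule development, had counts of 18, 234, 8 and 117 against 6 to 9 in Sham. It failed the count filter in both other comparisons with Sham and passed here through the group where it is high, so its log2 fold change (4.15 ± 0.96, adjusted p = 0.0111, and 2.95 without replicate 2) is a description; of the 28 members tested in every comparison 5 were called, 1 higher and 4 lower. The summed level of 6 skeletal muscle genes was 5.74, 186, 3.72 and 113 FPKM in these libraries, high in the same replicates 2 and 4 as Wnt9b, while heart muscle was high in replicate 2 alone. Their part in the level of Wnt9b was not tested. Sfrp5 was called higher (1.79 ± 0.39, adjusted p = 0.00899). Lower were Fzd5 (-1.08), Fzd8 (-1.16), Sfrp2 (-1.64) and Wnt16 (-1.27), of which Fzd5 lost its call without Nx-LPi-Lp replicate 1 (-0.95) or 2 (-0.90), and Wnt16 without any library but Sham replicate 3 and Nx-LPi-Lp replicate 4 (-1.81 to -1.11 over the 8 fits). Lgr6 was not called (-0.43 ± 0.16, adjusted p = 0.0718). Between Nx-HPi-Hp and Nx-LPi-Lp, which differ in both diet components, 0 of 30 members were called, and 0% of all genes. Values did not overlap for 2 higher and 1 lower member (5.15% of all genes, 2.93% higher, 2.22% lower). At an unadjusted p under 0.05, 3 members (Sfrp4, Wnt2 and Wnt9b) and 1420 genes passed in edgeR, DESeq2 called 0 members and 75 genes, and limma called 0 of either.

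The rest of the pathway was read from 8 lists, chosen with earlier results of these data known. They hold 97 genes, of which 87 were tested against Sham. In Nx-HPi-Lp 17 of them were called higher and 11 lower (16 and 16 with total-count scaling), with a median log2 fold change of -0.27, so 32.2% were called beside 22.2% of all genes. Against Nx-HPi-Hp 8 were called higher and 6 lower (16.1%, beside 8.12% of all genes), and against Nx-LPi-Lp 9 and 5 (16.1%, beside 11.9%). The counts of single lists against Sham stand beside 15.0% of all genes called higher and 7.18% lower. Among the co-receptors, 3 of 7 were called higher against Sham and none lower. Ptk7, a receptor of the polarity branch, rose most (2.92 ± 0.47, adjusted p = 0.000917). Tspan12, a partner of Fzd4, rose by 1.48 on the log2 scale, and Ror2 was the remaining one. Tspan12 was 3.55 to 7.93 FPKM in Sham and 10.2 to 19.0 in Nx-HPi-Lp. In Nx-HPi-Hp it was 4.78 to 27.5 and in Nx-LPi-Lp 11.3 to 39.2, so high values were not particular to Nx-HPi-Lp. Lrp5 and Lrp6 were not called, at 9.41 ± 1.496 FPKM in Sham and 5.64 ± 0.484 in Nx-HPi-Lp for Lrp5 (-0.77 ± 0.13, adjusted p = 0.00136, under the 2-fold limit) and 5.68 ± 0.523 and 4.99 ± 1.14 for Lrp6. Of the R-spondins and the ligases that remove Frizzled from the surface, 3 were tested (Rspo1, Rspo3 and Znrf3), and edgeR and limma called 0 of them, although 3 had an unadjusted p under 0.05 in either; DESeq2 called 2.

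The other extracellular inhibitors were called in both directions, 1 higher and 4 lower of 10 tested against Sham. Sost codes for sclerostin, an inhibitor of Lrp5 and Lrp6 known from osteocytes. Sost was more abundant in Sham than any member, with 683, 608, 441 and 665 FPKM in the Sham libraries. It was 68.8, 21.7, 70.9 and 23.9 in Nx-HPi-Lp, 246, 129.57, 41.1 and 566 in Nx-HPi-Hp and 104, 147, 259 and 459 in Nx-LPi-Lp. Every Nx-HPi-Lp library was far under the Sham range, while replicate 4 of both other nephrectomised groups was within it. Replicates 2 and 4 of Nx-HPi-Lp, which had the least smooth muscle RNA of that group, also had the least Sost. In Nx-LPi-Lp the order by Sost was that of the summed smooth muscle level, and in Sham and Nx-HPi-Hp it was not. The part of smooth muscle content in the fall of Sost was not tested. Its log2 fold change was -3.72 ± 0.43, adjusted p = 0.000153 against Sham, -2.39 ± 0.56, adjusted p = 0.0181 against Nx-LPi-Lp and -2.42 ± 0.73, adjusted p = 0.0544 against Nx-HPi-Hp, where it was not called. Wif1, which binds Wnt directly, fell from 10.2 ± 2.97 FPKM in Sham to 1.4999 ± 0.683 in Nx-HPi-Lp, with a log2 fold change of -2.76 ± 0.33, adjusted p = 0.000196. The calls of Sost and Wif1 against Nx-LPi-Lp were both lost without Nx-HPi-Lp replicate 4 (-2.16 and -1.76). Sostdc1, a relative of Sost, rose from 0.224 ± 0.0546 FPKM to 4.06 ± 4.20 (4.12 ± 0.85, adjusted p = 0.00373). Its values were 10.1, 0.382, 2.62 and 3.13 FPKM in the Nx-HPi-Lp libraries, and the log2 fold change was 3.15 without replicate 1 and 2.72 without replicates 1 and 4, still called. Frzb, the Frizzled-related inhibitor also called Sfrp3, was called against Nx-HPi-Hp (1.70 ± 0.43, adjusted p = 0.0314) and Nx-LPi-Lp (1.68 ± 0.31, adjusted p = 0.00779) and just missed the 2-fold limit against Sham (0.99 ± 0.32, adjusted p = 0.0299). It passed that limit without Nx-HPi-Lp replicate 1 (1.21) or 4 (1.10) or Sham replicate 3 (1.18), and its call against Nx-HPi-Hp was lost without Nx-HPi-Lp replicate 2, 3 or 4 or Nx-HPi-Hp replicate 1 or 2 (1.32, adjusted p = 0.0712, without the first).

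Among genes that act inside the cell, the share called against Sham was 14.3% for ligand processing and release, 6.25% for the destruction complex and its transducers and 21.4% for nuclear factors, beside 22.2% of all genes. Of 7 genes for ligand processing and release only Tmed5 was called (1.06 ± 0.20, adjusted p = 0.00233). It codes for a sorting factor of early secretion, and its call was lost without Sham replicate 1 (0.95) or Nx-HPi-Lp replicate 3 (0.90). Tmed5 was 5.36 to 8.11 FPKM in Sham and 9.52 to 18.8 in Nx-HPi-Lp. In Nx-HPi-Hp it was 6.39 to 19.0 and in Nx-LPi-Lp 11.7 to 29.4. Wls, the carrier of Wnt to the surface, was 17.4 ± 1.504 FPKM in Sham and 12.2 ± 2.83 in Nx-HPi-Lp. Of 16 genes of the destruction complex and its transducers only Apc2, a gene known mainly from neurons, was called (2.32 ± 0.72, adjusted p = 0.0256), and it was highest in the libraries rich in neuron RNA (2.33, 0.140, 0.439 and 1.34 FPKM), without which it was 0.46 (adjusted p = 0.465). That call held only without Nx-HPi-Lp replicate 2 or 3 (1.59 to 2.69 over the 8 fits). The part of neuron content in the rise of Apc2 was not tested. Ctnnb1, which codes for beta-catenin, went from 64.0 ± 6.19 FPKM to 43.0 ± 4.36 (-0.60 ± 0.11, adjusted p = 0.00198), under the 2-fold limit. Its libraries were at 38.7 to 49.1 FPKM in Nx-HPi-Lp, 24.0 to 38.1 in Nx-HPi-Hp and 28.8 to 39.9 in Nx-LPi-Lp. Of 14 nuclear factors 3 were called. Tcf7 (-2.01 ± 0.51, adjusted p = 0.0107) and Lef1 (-1.82 ± 0.58, adjusted p = 0.0283) fell, Lef1 from a low level of 0.226 ± 0.146 FPKM in Sham and with overlapping groups, and Ctnnbip1, which keeps beta-catenin from TCF factors, rose (1.14 ± 0.14, adjusted p = 0.000215). Thymus and T cell genes were also lower in Nx-HPi-Lp, and in the Sham libraries they summed to 3.75, 13.0, 4.06 and 24.3 FPKM where Tcf7 was 1.78, 6.70, 2.61 and 8.54 FPKM. The order of the Sham libraries was the same for this sum, for Tcf7 and for Lef1, and the part of T cells in both falls was not tested. The call of Lef1 was lost without Sham replicate 2 or 4 or Nx-HPi-Lp replicate 1, 3 or 4 (-2.17 to -1.43 over the 8 fits).

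The list of feedback and target genes had the largest share called, 8 higher and 1 lower of 12 tested against Sham, 6 and 1 against Nx-HPi-Hp and 5 and 1 against Nx-LPi-Lp (75%, 58.3% and 50%, beside 22.2%, 8.12% and 11.9% of all genes), with median log2 fold changes of 1.51, 1.34 and 1.14. The list was chosen with earlier results of these data known, so these shares are a description. Its members did not move as one. Axin2, a feedback gene widely used as a readout of beta-catenin activity, was 1.42 ± 0.358 FPKM in Sham and 1.55 ± 0.594 in Nx-HPi-Lp (0.09 ± 0.30, adjusted p = 0.824, 95% interval -0.57 to 0.75), and Nkd1, another feedback inhibitor, fell (-2.17 ± 0.21, adjusted p = 6.67e-05). The genes called higher were Tbx3 (2.67 ± 0.41, adjusted p = 0.000773), Myc, Wisp1, Nkd2, Ccnd1, Cd44, Fgf18 and Fosl1, several of which are also induced by signals other than Wnt. Myc, chosen after its values were seen, had 1.38, 2.15, 1.66 and 1.48 FPKM in the Sham libraries, 6.88, 11.3, 12.6 and 7.89 in Nx-HPi-Lp, 3.54, 2.44, 3.04 and 1.86 in Nx-HPi-Hp and 2.58, 2.49, 1.82 and 1.64 in Nx-LPi-Lp, with the Nx-HPi-Lp libraries above all others. Its log2 fold change was 2.51 ± 0.23, adjusted p = 5.46e-05 against Sham, 1.83 ± 0.27, adjusted p = 0.00494 against Nx-HPi-Hp and 2.19 ± 0.25, adjusted p = 0.00144 against Nx-LPi-Lp. Of 18 polarity genes 2 were called higher and 4 lower against Sham. Vangl2, a core polarity gene, rose (1.62 ± 0.35, adjusted p = 0.00475), and Dact3, which codes for a protein that binds Dishevelled, fell from 143 ± 14.8 FPKM to 24.5 ± 5.63 (-2.57 ± 0.18, adjusted p = 1.5e-05). Dact3 was called in all 3 comparisons, with -1.75 against Nx-HPi-Hp and -1.56 against Nx-LPi-Lp.

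**Figure D5:**
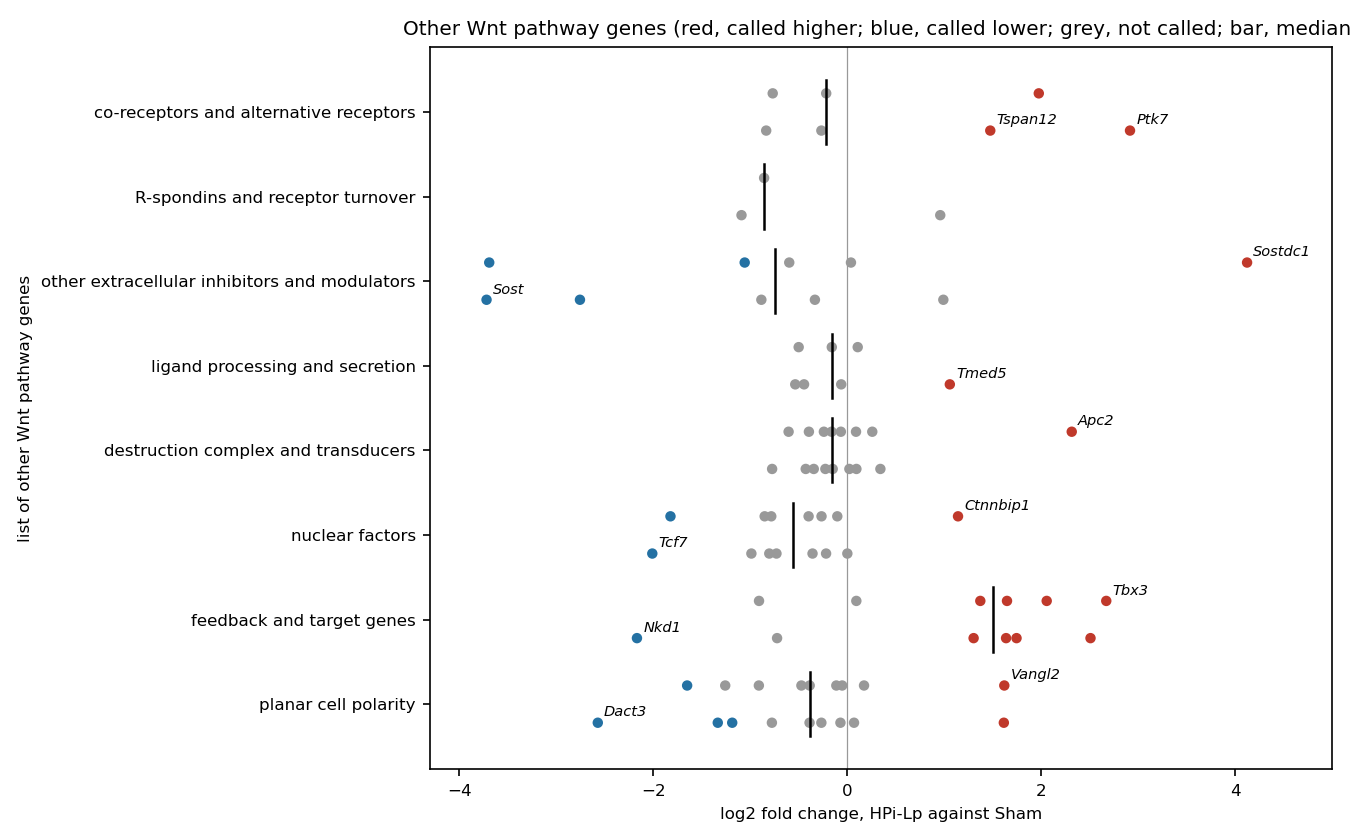
Log2 fold change between Nx-HPi-Lp and Sham for the tested genes of 8 lists of the Wnt pathway, with each gene as a point and the median of a list as a bar. The feedback and target genes lie highest as a list with a median of 1.51, and the points farthest from 0 are the extracellular inhibitors Sostdc1 (4.12) and Sost (-3.72).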

How the data were processed

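Poly(A) RNA was sequenced from 16 mouse aortas in 4 groups of 4. The authors aligned cleaned reads to mm10 with HISAT2 and counted them with featureCounts 1.5.0-p3. They deposited raw counts for 54532 genes and FPKM, whose scaling between libraries they had already made. Whether counting used strand is not given in the sources used here.

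From the counts, edgeR 4.0.16 (R 4.3.3) gave the quasi-likelihood test for each pair of groups, fitted on their 8 libraries alone since the study compared groups in pairs, with filterByExpr and TMM. p-values were adjusted over all genes tested by the method of Benjamini and Hochberg. Calls needed an adjusted p no higher than 0.05 and a log2 fold change of 1 or more in size, and SE is the log2 fold change divided by the root of F. Library CPM used TMM over the 16 libraries. Groups and replicate numbers came from the labels, each of which names an animal. p-values measure the spread between these animals. Within each group no library was a copy of another (lowest chi-square 21.9 per gene), and pairs from different groups were not checked.

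The members, gene lists and marker lists were chosen with earlier results of these data known. Values by library are given for members called in at least 2 of the 3 comparisons of Nx-HPi-Lp, for those called in 1 whose mean reached 50 counts in a group, and for the most abundant of each family. Other genes were named from each list for the largest change in either direction, beside a few fixed key genes.

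As alternatives the fits were repeated with RLE or total-count scaling, DESeq2 1.42.0, limma 3.58.1 on log2(FPKM + 1) and log2(FPKM + 0.1), other count filters, all 16 libraries in 1 fit, a block on the replicate number, no fold threshold, mitochondrial genes left out and each library left out. The count tests were also run on simulated data, but no outcome of those runs is given here and no result rests on them. Library totals of 13659525 to 57276915 counts set the precision, which is low for members with few counts; a count of 0 allows up to 3 counts. Gene coordinates are those deposited (mm10), and 39 of 40 members have the same ones in GENCODE vM21.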

Additional observations from a re-analysis of the deposited data

Results flagged for a closer look

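In 124 groups of 4 libraries, 1 for each of the 31 members tested in any comparison and each group, 5 had a value farther from the rest than Dixon's 95% critical value for 4 samples allows. Chance alone gives about 1 in 20, which these flags did not exceed. Sfrp4 in Nx-HPi-Hp replicate 1 stood at 134.73 CPM, and the rest of that group lay between 31.0 and 40.7. Without this library the log2 fold change of Sfrp4 against Sham in that group was -0.15. Wnt16 in Nx-LPi-Lp replicate 4 was 17.3 CPM, against 5.69 to 6.85 in the rest of its group, and that library had the highest smooth muscle sum of the group (6672 FPKM). Wnt6 in Nx-HPi-Hp replicate 3 was 3.22 CPM, against 1.45 to 1.71. Lgr5 in Sham replicate 1 was the lowest of its group, at 0.116 CPM from 3 counts, against 0.219 to 0.237. Wnt7b in Nx-HPi-Lp replicate 2 was 0.628 CPM from 36 counts, and it was 0 in the rest of that group. With the rest all equal, any other value would have been flagged.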

How the results depend on the processing

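The members called against Sham in Nx-HPi-Lp numbered 17, and 12 to 19 under the alternatives (15 to 19 with a library left out). Against Nx-HPi-Hp the 5 calls became 10 with DESeq2, 3 with limma on log2(FPKM + 1), 0 with the replicate block (9 at an unadjusted p under 0.05), 0 without the 2 neuron-rich libraries and 0 to 4 with a library left out, the lowest without Nx-HPi-Lp replicate 4. Against Nx-LPi-Lp the 7 became 4 with the block and 5 to 8 with a library left out. Between Nx-HPi-Hp and Sham the 9 became 5 with limma on log2(FPKM + 1) and 5 to 12 with a library left out, 5 without Sham replicate 1 or 2. Between Nx-LPi-Lp and Sham the 6 became 16 with no fold threshold, 10 with total-count scaling and 4 to 9 with a library left out. The other pathway genes called were 28 against Sham (51 with no fold threshold, 17 with limma on log2(FPKM + 1), 23 to 29 with a library left out), 14 against Nx-HPi-Hp (22 with no fold threshold, 23 with all 16 libraries in 1 fit, 4 with the block, 6 without the neuron-rich libraries, 5 to 13 with a library left out, where leaving out Nx-HPi-Lp replicate 4 gave 5, replicate 3 gave 9 and Nx-HPi-Hp replicate 2 gave 6), 14 against Nx-LPi-Lp (27 with no fold threshold, 11 to 16 with a library left out), 9 between Nx-HPi-Hp and Sham (29 with no fold threshold, 2 with limma on log2(FPKM + 1), 2 to 21 with a library left out, 21 without Nx-HPi-Hp replicate 4 and under 6 without Sham replicate 1 or 2 or any other Nx-HPi-Hp library), 7 between Nx-LPi-Lp and Sham (35 with no fold threshold, 12 with total-count scaling, 4 with limma on log2(FPKM + 1), 4 with all 16 libraries, 4 to 9 with a library left out, 4 without Nx-LPi-Lp replicate 1) and 0 between Nx-HPi-Hp and Nx-LPi-Lp (1 with DESeq2). With total-count scaling 2 were higher and 6 lower in Nx-HPi-Hp than in Sham (5 and 4 as reported), and 4 and 8 in Nx-LPi-Lp (5 and 2). That scaling moved the median log2 fold change of all genes to -0.14, -0.19 and -0.22 for Nx-HPi-Lp, for Nx-HPi-Hp and for Nx-LPi-Lp against Sham, and DESeq2 moved the last to 0.11. The cause of these shifts was not tested. A call without the fold threshold admits smaller changes by definition.

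Whether the replicate numbers mark a shared batch or pairing of the mice cannot be told from correlations of same-numbered libraries. Between Nx-HPi-Hp and Nx-LPi-Lp, same-numbered libraries correlated at 0.19, 0.16, -0.07 and 0.54, 3 of 4 best with their own number, and no comparison had every pair over 0.1.

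Of the alternative values for single genes, 2233 kept direction and call, 170 lost a call, 85 gained one and 37 changed sign. No value that changed sign was called. Between Nx-HPi-Lp and Sham the sign changed for Sfrp1 (-0.0061 with total-count scaling, -0.23 to 0.34 with a library left out) and Axin2 (-0.047 with total-count scaling, -0.044 without the neuron-rich libraries, -0.13 to 0.26 with a library left out). Between Nx-HPi-Lp and Nx-HPi-Hp the sign changed for Dkk3 (0.049 with limma on log2(FPKM + 1), 0.052 with limma on log2(FPKM + 0.1), 0.057 with the block, -0.41 to 0.38 with a library left out), Fzd1 (-0.099 to 0.60 with a library left out), Fzd5 (0.019 with limma on log2(FPKM + 1), 0.061 with limma on log2(FPKM + 0.1), 0.076 with the block, 0.0067 with all 16 libraries, -0.25 to 0.31 with a library left out) and Fzd7 (-0.66 to 0.044 with a library left out). Between Nx-HPi-Lp and Nx-LPi-Lp the sign changed for Fzd1 (0.010 with total-count scaling, 0.015 without mitochondrial genes, 0.13 without the neuron-rich libraries, -0.19 to 0.14 with a library left out), Fzd5 (-0.36 to 0.073 with a library left out) and Sfrp2 (0.038 without the neuron-rich libraries, -0.70 to 0.041 with a library left out). Between Nx-HPi-Hp and Sham the sign changed for Sfrp4 (-0.15 to 0.85 with a library left out). Between Nx-LPi-Lp and Sham the sign changed for Dkk1 (-0.014 to 1.00 with a library left out), Fzd3 (-0.11 with total-count scaling, -0.037 to 0.32 with a library left out) and Wnt2 (-0.086 to 0.63 with a library left out).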
